A study of Mus musculus with 13 samples.

Results

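The 10 genes described here (P2ry12, P2ry13, Gpr34, Tmem119, Siglech, Cx3cr1, Fcrls, Sall1, Csf1r and Aif1) are used as markers of microglia at rest, and were taken by symbol from the 47643 genes counted in neurovascular RNA. All 10 were found, and all 10 were among the 17285 genes expressed highly enough to be tested. The RNA came from 13 male mice of the outbred strain CD1, aged 8 to 10 weeks, with no genetic change. Sham-vehicle mice (n = 4) received PBS and the drug vehicle. LPS-vehicle mice (n = 5) received lipopolysaccharide (LPS) from Salmonella enterica typhimurium, 3 mg/kg into the peritoneum at 0, 6 and 24 h, with vehicle. LPS-CPD-4645 mice (n = 4) received the same LPS and, per the labels, 10 mg/kg of CPD-4645 under the skin 30 min after each LPS dose; the study's text does not give the same delay throughout. CPD-4645 inhibits monoacylglycerol lipase, the enzyme that breaks down the endocannabinoid 2-AG. All mice were killed at 28 h, 4 h after the last LPS dose, and their brains were not perfused, so blood cells within the vessels are part of the sample. There was no group given CPD-4645 without LPS.

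Microglia are the resident macrophages of the brain. At rest their processes survey the tissue and carry receptors for nucleotides, lysophospholipids, chemokines and growth factors, and this profile is kept up by TGF-beta, by ligands of CSF1R and by transcription factors that include PU.1 and SALL1. Several of its genes, P2ry12 above all, are known to fall when microglia are activated, while Aif1, which encodes the actin-bundling protein IBA1, is shared with other macrophages.

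Counts per library ran from 7813559 to 55133373, the 2 shallowest being mouse 3 of LPS-vehicle and mouse 1 of LPS-CPD-4645. Mitochondrial genes took 6.47% to 12.71% of the counts in sham-vehicle mice, 4.84% to 7.05% in LPS-vehicle mice and 3.97% to 8.17% in LPS-CPD-4645 mice. This share was thus mostly higher in sham-vehicle mice, as were most of the 10 genes, and its part in their values was not tested. Levels are given as CPM, the reads of a gene scaled to the TMM-adjusted library total, and as CPM per kilobase of exon where genes are compared with each other. The label of the tissue was set against marker genes in sham-vehicle mice. Endothelial Cldn5 stood at 75.9 CPM per kilobase and Pecam1 at 7.10, while neuronal Snap25 stood at 1546 and Syp at 921, so the fraction held vessels and a large share of neuronal transcripts. The 10 genes together summed to 175 to 242 CPM in sham-vehicle mice, 93.8 to 176 CPM in LPS-vehicle mice and 86.9 to 125 CPM with CPD-4645. In such mixed RNA, fewer microglia and less RNA of a gene per microglial cell cannot be told apart.

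In sham-vehicle mice Csf1r was the most abundant of the 10 per length, at 13.2 ± 2.53 CPM per kilobase (SD, n = 4), followed by P2ry12 at 11 ± 2.5 and Tmem119 at 10.0 ± 1.77. Siglech was the lowest, at 1.81 ± 0.387. Neighbours in this order overlapped from mouse to mouse, apart from Sall1 and Siglech at its lower end. In LPS-vehicle mice the order began with Csf1r at 14.2 ± 2.99 and Aif1 at 9.90 ± 2.19 CPM per kilobase (SD, n = 5), and P2ry12 stood eighth at 1.06 ± 0.391. In LPS-CPD-4645 mice Csf1r again led at 9.69 ± 2.07, clear of Cx3cr1 at 4.85 ± 0.921 (SD, n = 4).

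The sequence before the start of 5 of the genes is shown because these passed the threshold after LPS or between the 2 groups given LPS, as did Gpr34, for which the RefSeq table used here gave no window, and because the transcript of PU.1, a factor that many macrophage genes rely on, changed in these data (its gene, Spi1, is described with the transcription factors; the protein was not measured). Each run is the 250 bases before a RefSeq transcription start on GRCm38.p6, 5′ to 3′ on the strand of the gene, with capitals marking the PU.1 core GAGGAA or GGAAGT on either strand. A GAGGAA core that runs across the start of Siglech is not marked. The start used for P2ry12 (59262985) lies outside the span given below, and the bases checked after it were not found in a transcript of the gene. That of Fcrls (87263524) lies inside its span, so its run partly lies within the gene.
P2ry12, chr3:59262986-59263235, minus strand: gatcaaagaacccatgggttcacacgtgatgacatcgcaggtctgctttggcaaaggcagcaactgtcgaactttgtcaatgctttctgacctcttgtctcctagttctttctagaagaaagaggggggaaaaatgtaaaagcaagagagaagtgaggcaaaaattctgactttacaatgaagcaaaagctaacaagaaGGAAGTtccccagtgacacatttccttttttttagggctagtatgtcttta
P2ry13, chr3:59210883-59211132, minus strand: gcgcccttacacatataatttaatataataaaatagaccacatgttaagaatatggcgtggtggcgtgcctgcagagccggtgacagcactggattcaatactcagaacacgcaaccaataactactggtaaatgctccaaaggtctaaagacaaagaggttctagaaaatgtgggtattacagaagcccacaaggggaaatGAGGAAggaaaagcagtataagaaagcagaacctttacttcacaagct
Fcrls, chr3:87263525-87263774, minus strand: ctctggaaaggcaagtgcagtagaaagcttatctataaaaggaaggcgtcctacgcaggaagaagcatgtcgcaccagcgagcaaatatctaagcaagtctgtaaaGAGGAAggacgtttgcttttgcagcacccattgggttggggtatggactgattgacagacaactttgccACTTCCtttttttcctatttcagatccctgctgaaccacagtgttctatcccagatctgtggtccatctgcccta
Siglech, chr7:55767934-55768183, plus strand: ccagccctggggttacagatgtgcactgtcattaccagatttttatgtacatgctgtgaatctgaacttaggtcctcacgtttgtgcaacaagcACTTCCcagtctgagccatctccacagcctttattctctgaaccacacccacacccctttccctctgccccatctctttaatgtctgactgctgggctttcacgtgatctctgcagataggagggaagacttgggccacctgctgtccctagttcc
Aif1, chr17:35176053-35176302, minus strand: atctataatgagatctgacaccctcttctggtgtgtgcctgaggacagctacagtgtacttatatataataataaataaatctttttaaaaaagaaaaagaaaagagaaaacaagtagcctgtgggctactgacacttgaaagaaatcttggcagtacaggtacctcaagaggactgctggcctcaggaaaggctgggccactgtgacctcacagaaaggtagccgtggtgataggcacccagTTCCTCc

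RefSeq's table gave windows of 300 bases (250 before and 50 after a start) for 7 of the 10 genes, 9 windows in all. Either PU.1 core was present in 6 of the 9 windows, those of Aif1, Fcrls, P2ry12, P2ry13 and Siglech and 1 of the 3 of Sall1, and in 43.4% of all 32851 windows. The MEF2 motif was found in the window of Cx3cr1, and 3.7% of all windows hold it. The composite motif of PU.1 and IRF factors was in none of the 9, against 2.7% of all windows. The motifs were searched on both strands, the PU.1 cores can share bases with each other and with the composite motif, and a match is a description of these letters and not a binding site.

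The first comparison, LPS-vehicle against sham-vehicle, asks how systemic LPS changed the 10 genes. Of them 5 were lower past the threshold (quasi-likelihood test in edgeR, p adjusted by Benjamini-Hochberg and not above 0.05, and a level at least 2-fold apart), against 0.995% of all genes tested. They were P2ry12, P2ry13, Gpr34, Siglech and Fcrls. None of the 10 was higher past it by edgeR, limma-voom or DESeq2, where 4.68% of all genes were by edgeR. Aif1 leaned higher, at 0.55 on the log2 scale (edgeR, unadjusted p = 0.011, adjusted p = 0.055). By adjusted p alone 6 were lower (8.86% of all genes) and 0 higher (11.1%), and in 4 the LPS-vehicle mice were all below the sham-vehicle mice (8.44% of all genes), with 0 all above (9.68%). The median log2 fold change was -1.37 over the 10 genes and -0.000654 over all genes tested.

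P2ry12 encodes the ADP receptor that draws microglial processes to sites of injury, and it lies on chromosome 3, 59216272 to 59262871 (GRCm38). It stood at 34.0, 20.3, 29.6 and 23.6 CPM in sham-vehicle mice 1 to 4. In LPS-vehicle mice 1 to 5 it stood at 2.58, 2.39, 1.39, 2.49 and 4.05 CPM. Every LPS-vehicle mouse was thus far below the lowest sham-vehicle mouse, and the mean fell from 26.9 ± 6.10 (SD, n = 4) to 2.58 ± 0.954 (SD, n = 5), 9.60% of the sham mean. On the log2 scale this was -3.33 ± 0.22 (SE; edgeR, adjusted p = 1.5e-08).

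P2ry13, a second ADP receptor, lies next to it at 59207892 to 59210882. In sham-vehicle mice it stood at 12, 12.6, 15.7 and 9.63 CPM, and in LPS-vehicle mice at 1.92, 2.03, 0.63, 3.94 and 6.26. The groups did not overlap, although LPS-vehicle mice ranged widely and mouse 5 was the highest, as it was for P2ry12. P2ry13 changed by -2.01 ± 0.37 on the log2 scale (SE; edgeR, adjusted p = 0.00066). Both receptor genes lie within Med12l on the opposite strand, whose level was 51.2 ± 3.10 CPM in sham-vehicle and 52.2 ± 1.95 in LPS-vehicle mice (SD, n = 4 and 5). Med12l itself had a log2 fold change of 0.03 (edgeR, adjusted p = 0.863).

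Gpr34, a receptor for lysophosphatidylserine on the X chromosome (13632089 to 13640858), fell the furthest. It stood at 10.7, 12, 9.56 and 8.74 CPM in sham-vehicle mice and at 0.515, 0.197, 0.756, 0.137 and 0.566 in LPS-vehicle mice. The latter values rest on 5 to 19 reads per library, so they are the least precise of the 10 genes. The groups did not overlap, and the log2 fold change was -4.75 ± 0.46 (SE; edgeR, adjusted p = 8.6e-07). Gpr34 lies within Cask on the opposite strand, which stood at 82.0 ± 6.73 CPM in sham-vehicle and 72.9 ± 7.51 in LPS-vehicle mice (SD, n = 4 and 5).

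Siglech encodes a sialic acid-binding receptor that signals through the adaptor DAP12 (Tyrobp) and is also known in plasmacytoid dendritic cells. It was counted at 5.02, 5.79, 5.22 and 7.80 CPM in sham-vehicle mice. In LPS-vehicle mice it was counted at 0.446, 0.556, 1.01, 0.931 and 0.507 CPM. The groups were far apart, with LPS-vehicle mice at 11.6% of the sham mean and a log2 fold change of -3.18 ± 0.28 (SE; edgeR, adjusted p = 2.3e-07). Of 10 markers of plasmacytoid dendritic cells 7 were tested, and after LPS 3 were higher and 1 lower past the threshold (4.68% and 0.995% of all genes tested). Those that rose were Irf7 (3.82), Bst2 (2.72) and Ly6d (1.34), of which Irf7 and Bst2 are also interferon-induced genes of many cell types, and the 1 that fell was Cox6a2 (-1.27) (edgeR, adjusted p = 4.4e-06, 6.1e-07, 0.018 and 0.0033). The other 3, Ccr9, Klk1 and Tlr9, averaged 0.188, 0.0323 and 0.238 CPM in sham-vehicle mice and were too low to be tested. The part of these cells in the fall of Siglech was not tested.

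Fcrls, a gene of the Fc receptor-like family on chromosome 3 (87250758 to 87263738), stood at 7.39, 18.8, 15.5 and 9.43 CPM in sham-vehicle mice. It stood at 7.42, 2.12, 1.64, 1.75 and 1.67 CPM in LPS-vehicle mice. The groups met at 1 point, since LPS-vehicle mouse 1 was as high as sham-vehicle mouse 1, and the other 4 LPS-vehicle mice were close together and low. Fcrls changed by -2.10 ± 0.42 on the log2 scale (SE; edgeR, adjusted p = 0.0015), and by -2.81 without LPS-vehicle mouse 1. Neither P2ry13 nor Fcrls passed a test against the 2-fold change itself (glmTreat).

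**Figure D1:**
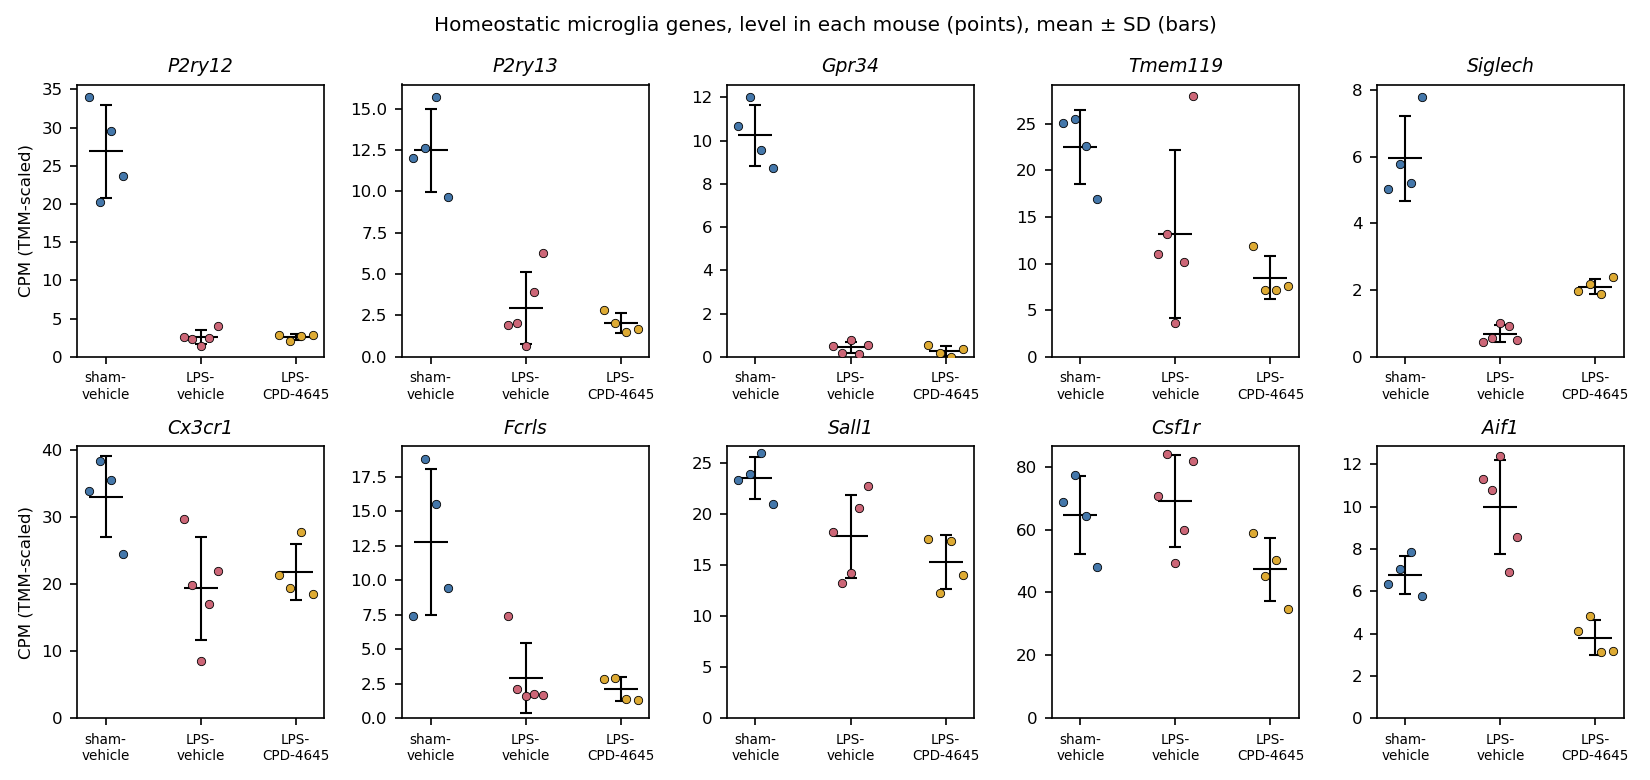
Level of each of the 10 genes in each mouse, in CPM after TMM scaling on axes that start at 0, by group, with points for mice and bars for the mean ± SD. P2ry12, P2ry13, Gpr34 and Siglech separate the sham-vehicle from the LPS-vehicle mice, Csf1r overlaps between all groups, and Siglech of the LPS-CPD-4645 mice lies between the other two groups.

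The remaining 5 genes did not pass the threshold after LPS. Tmem119, which encodes a membrane protein of microglia, ranged widely among LPS-vehicle mice. It stood at 25.1, 25.5, 22.6 and 16.9 CPM in sham-vehicle mice and at 11, 13.2, 3.65, 10.2 and 28.0 in LPS-vehicle mice. Mouse 5 was above every sham-vehicle mouse, and the other 4 were below all of them. Tmem119 did not pass at -0.73 ± 0.33 on the log2 scale (SE; edgeR, adjusted p = 0.13), but without LPS-vehicle mouse 5 it was at -1.19 and passed (edgeR, adjusted p = 0.0036, and from 0.0020 to 1 over all alternatives).

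Cx3cr1, the receptor for fractalkine, stood at 33.9, 38.4, 35.5 and 24.5 CPM in sham-vehicle and at 29.7, 19.9, 8.57, 17.0 and 21.9 in LPS-vehicle mice. LPS-vehicle mouse 1 lay above the lowest sham-vehicle mouse. At -0.74 ± 0.22 on the log2 scale (SE) the change was below 2-fold, with an adjusted p of 0.026 in edgeR. The span of Cx3cr1 in GENCODE M21 overlaps Wdr48 and Ttc21a on the opposite strand and Gorasp1, Csrnp1 and Xirp1 on the same strand. It may differ in GENCODE M9, on which the reads were counted, and the part of shared reads was not tested.

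Sall1, the transcription factor that holds microglial identity, stood at 23.4, 23.9, 26.0 and 21 CPM in sham-vehicle and at 18.3, 13.3, 14.2, 20.6 and 22.8 in LPS-vehicle mice. The groups overlapped, mouse 5 was again the highest of the LPS-vehicle mice, and the log2 fold change was -0.39 ± 0.16 (SE; edgeR, adjusted p = 0.087).

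Csf1r, the receptor for CSF1 and IL-34 that microglia need to survive, stood at 68.8, 77.5, 64.3 and 48.0 CPM in sham-vehicle and at 70.7, 84.1, 49.5, 59.8 and 81.7 in LPS-vehicle mice. The groups overlapped throughout, and the log2 fold change was 0.10 with a 95% interval from -0.24 to 0.45 (edgeR, adjusted p = 0.715). Aif1 stood at 6.36, 7.08, 7.85 and 5.78 CPM in sham-vehicle and at 11.3, 10.8, 12.4, 6.90 and 8.58 in LPS-vehicle mice. Only LPS-vehicle mouse 4 lay within the sham-vehicle range, and the log2 fold change of 0.55 ± 0.20 (SE) did not pass (edgeR, adjusted p = 0.055).

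The second comparison, LPS-CPD-4645 against LPS-vehicle, asks what CPD-4645 changed in mice that had all received LPS. It shares the LPS-vehicle mice with the first, so the values of the comparisons are given side by side without a test of their relation. Siglech was the 1 gene of the 10 that was higher past the threshold, against 1.7% of all genes tested, and Aif1 was the 1 that was lower, against 4.19%. By adjusted p alone 1 was higher (14.1% of all genes) and 2 lower (16.4%), and the groups did not overlap in Siglech, higher (11.1% of all genes), and in Aif1, lower (12%). Neither gene passed a test against the 2-fold change itself (glmTreat, adjusted p = 0.28 for Siglech and 0.58 for Aif1), and both passed under the other 24 alternatives. The median log2 fold change was -0.53 over the 10 genes and -0.0232 over all genes tested.

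Siglech stood at 1.98, 2.17, 1.88 and 2.39 CPM in LPS-CPD-4645 mice 1 to 4. All 4 were above the highest LPS-vehicle mouse (1.01) and below the lowest sham-vehicle mouse (5.02), at 35.3% of the sham mean. Against LPS-vehicle the log2 fold change was 1.68 ± 0.28 (SE; edgeR, adjusted p = 0.00029), a 3.21-fold higher level. Against sham-vehicle it was -1.49 ± 0.27 (SE; edgeR, adjusted p = 0.00033). In LPS-CPD-4645 mice Ccr9, Tlr9 and Klk1 averaged 0.356, 0.463 and 0.00981 CPM, and in LPS-vehicle mice 0.296, 0.0625 and 0.0110. The part of plasmacytoid dendritic cells in the rise of Siglech was not tested. Over all 10 markers of these cells, 7 were tested and had log2 fold changes from -0.76 to 0.37. The sum of the 10 was 2566 to 2964 CPM in LPS-vehicle mice and 2736 to 3347 CPM with CPD-4645, mostly from Atp1b1, which neurons also express.

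Aif1 stood at 4.11, 4.83, 3.12 and 3.18 CPM in LPS-CPD-4645 mice. Every one of them was below every LPS-vehicle mouse, and also below every sham-vehicle mouse. On the log2 scale it was at -1.38 ± 0.20 against LPS-vehicle (SE; edgeR, adjusted p = 0.00011) and -0.83 ± 0.21 against sham-vehicle (SE; edgeR, adjusted p = 0.0046). Csf1r stood at 59.0, 45.2, 50.4 and 34.8 CPM, with mice 2 and 4 below all mice of both other groups, and its log2 fold change against LPS-vehicle was -0.56 ± 0.17 (SE; edgeR, adjusted p = 0.016), less than 2-fold. Aif1 and Csf1r are expressed by macrophages and monocytes as well as microglia, and the values of those cells' markers are given with the other gene groups.

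**Figure D2:**
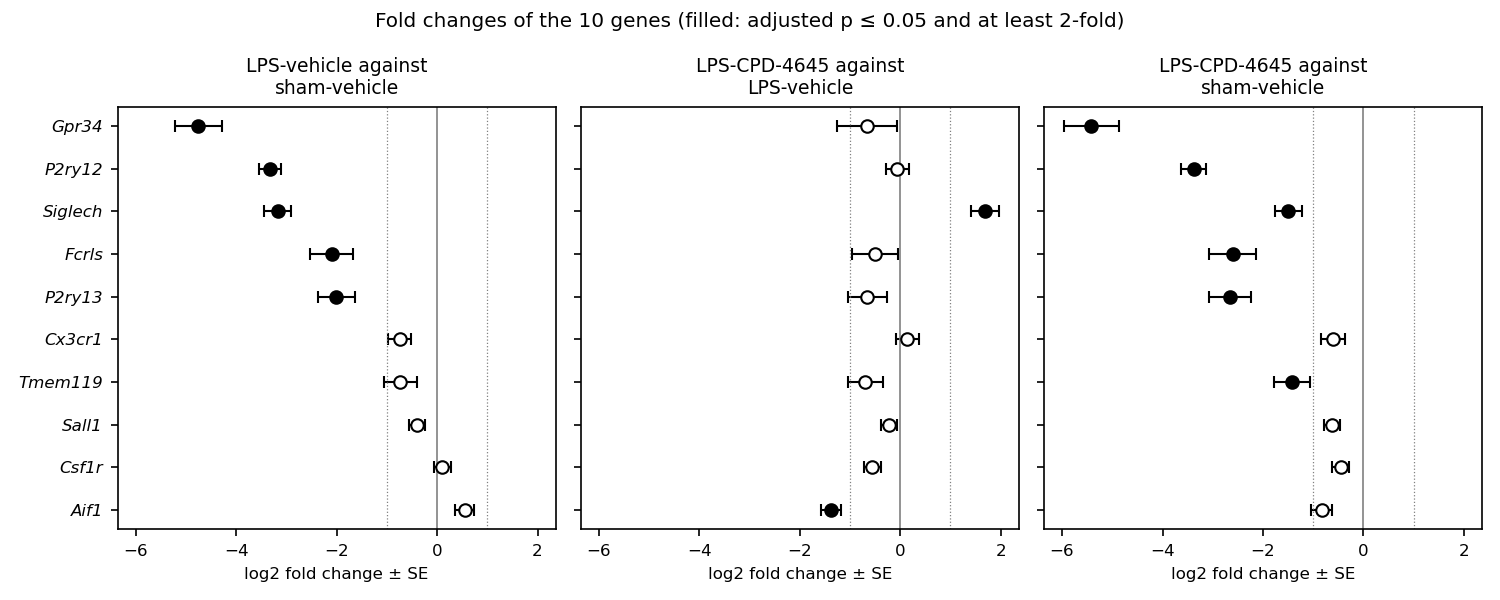
Log2 fold change ± SE of each of the 10 genes in the 3 comparisons, with filled points for genes past the threshold and dotted lines at a 2-fold change. After LPS 5 genes are filled on the left, and between the groups given LPS the filled points are Siglech at 1.68 and Aif1 at -1.38.

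Of the other genes that fell after LPS, P2ry12 stood at 2.85, 2.03, 2.67 and 2.83 CPM in LPS-CPD-4645 mice, all inside the LPS-vehicle range. Its log2 fold change against LPS-vehicle was -0.06, with a 95% interval from -0.55 to 0.43 (edgeR, adjusted p = 0.876). P2ry13 stood at 2.85, 2.06, 1.47 and 1.69 CPM, with a log2 fold change of -0.65 and a 95% interval from -1.48 to 0.18 (edgeR, adjusted p = 0.224). Gpr34 stood at 0.553, 0.175, 0 and 0.353 CPM, which is 0 to 9 reads per library. Its log2 fold change against LPS-vehicle was -0.66, with a 95% interval from -1.93 to 0.61 (edgeR, adjusted p = 0.431). In Fcrls, at 2.85, 2.94, 1.43 and 1.30 CPM, the log2 fold change of -0.50 had a 95% interval from -1.45 to 0.44 (edgeR, adjusted p = 0.421), and it was 0.20 without LPS-vehicle mouse 1.

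Tmem119 stood at 11.9, 7.20, 7.15 and 7.65 CPM in LPS-CPD-4645 mice, below every sham-vehicle mouse and within the LPS-vehicle range. Its log2 fold change against LPS-vehicle was -0.69 ± 0.34 (SE; edgeR, adjusted p = 0.137). Cx3cr1 stood at 21.3, 19.5, 27.8 and 18.6 CPM and Sall1 at 17.6, 12.3, 17.4 and 14, and neither passed against LPS-vehicle (log2 fold changes of 0.14 and -0.23, edgeR, adjusted p = 0.667 and 0.289). Without the 2 shallowest libraries, Tmem119 (-1.09) and P2ry13 (-1.02) were also lower past the threshold in this comparison (edgeR, adjusted p = 0.010 and 0.045, at most 1 over all alternatives). Each passed in 1 of 26 settings, the main fit included. Over these settings Tmem119 ran from -1.09 to -0.19 and P2ry13 from -1.02 to -0.16.

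Against sham-vehicle, 6 of the 10 genes were lower past the threshold in LPS-CPD-4645 mice, where 4.98% of all genes were. None was higher past it by edgeR, limma-voom or DESeq2, where 6.11% of all genes were by edgeR. The 6 were Gpr34 (log2 fold change -5.42), P2ry12 (-3.38), P2ry13 (-2.66), Fcrls (-2.61), Siglech (-1.49) and Tmem119 (-1.43). The last 2 did not pass a test against the 2-fold change itself (glmTreat). By adjusted p alone 9 were lower (19.3% of all genes) and 0 higher (19.5%). All 10 had values below 0, with a median of -1.46 against -0.0145 over all genes. In 8 of the 10 the groups did not overlap, where 18.8% of all genes were lower without overlap, and 18.7% were higher.

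The wider set of genes known from microglia at rest did not move as 1 block. Of 36 further genes of this kind, all tested, 4 were lower and 8 higher past the threshold after LPS (0.995% and 4.68% of all genes tested), and the median of their log2 fold changes was 0.09. In sham-vehicle mice the 36 summed to 1468 to 1739 CPM, against 175 to 242 CPM for the 10 genes. Bin1 alone averaged 350.5 CPM and Sparc 301.8 CPM. The part of other cells in the values of the 36 was not tested. Ltc4s, which makes leukotriene C4, fell by 2.46 on the log2 scale (edgeR, adjusted p = 0.00039). The other 3 that fell, picked after their values were seen, were the fructose transporter gene Slc2a5 (-1.84), the lipid receptor gene Trem2 (-1.15) and Olfml3 (-1.08). Gpr84, a receptor for medium-chain fatty acids, was higher by 4.47 (edgeR, adjusted p = 2.3e-08), and C1qb, a chain of complement C1q, was higher by 2.13 (edgeR, adjusted p = 8.3e-06).

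Between LPS-CPD-4645 and LPS-vehicle, 6 of the 36 were lower past the threshold in edgeR (4.19% of all genes tested) and 0 higher (1.7%). By adjusted p alone 14 were lower (16.4% of all genes) and 3 higher (14.1%), and the median of the 36 log2 fold changes was -0.50. Among those that fell were the selectin ligand gene Selplg (-1.73) and the transporter gene Slco2b1 (-1.49) (edgeR, adjusted p = 0.00077 and 0.0073). Against sham-vehicle 9 of the 36 were lower (4.98% of all genes) and 3 higher (6.11%) in LPS-CPD-4645 mice, with a median of -0.12.

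**Figure D3:**
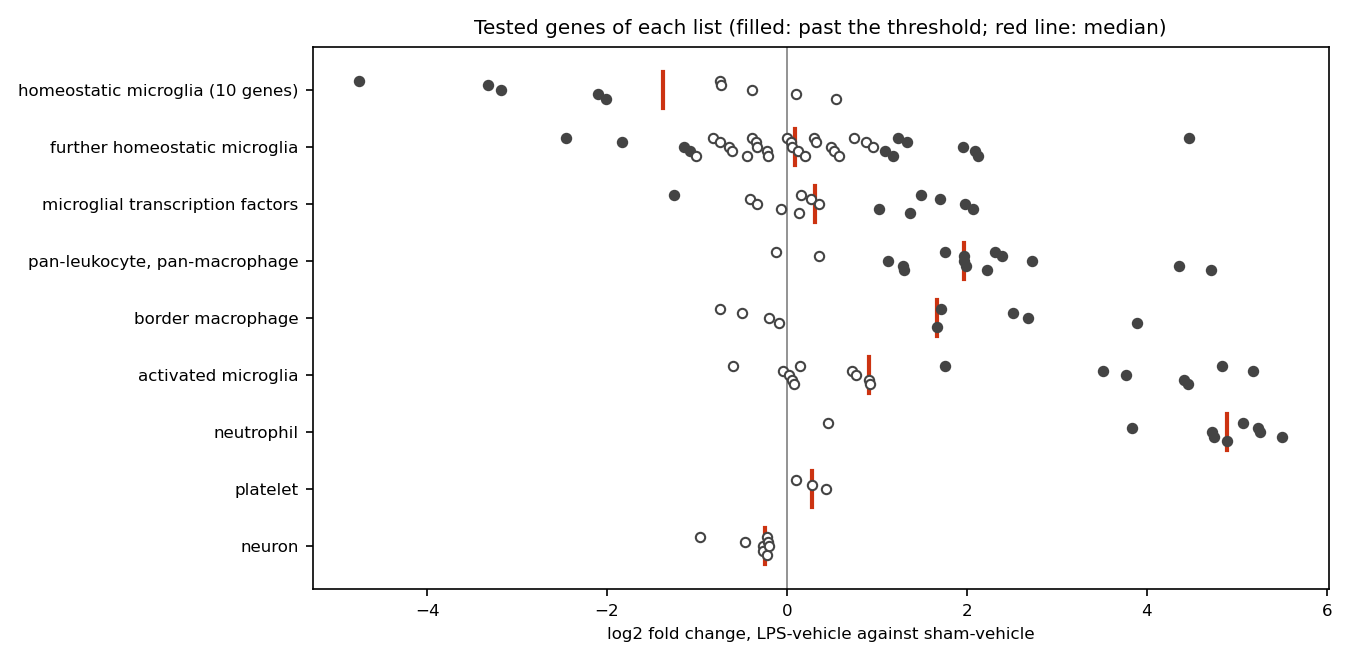
Log2 fold change between LPS-vehicle and sham-vehicle of every tested gene of 9 lists, with filled points for genes past the threshold and a red line at each median. The median is -1.37 for the 10 homeostatic microglia genes, 0.09 for the further homeostatic genes and 4.89 for neutrophil markers.

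Ligands and partners of the 10 genes were looked at with them. Of 22 such genes 19 were tested, and after LPS 6 were higher past the threshold (4.68% of all genes tested). By adjusted p alone 8 were higher (11.1% of all genes) and 2 lower (8.86%). Csf1, a ligand of CSF1R, was higher by 1.46 (edgeR, adjusted p = 5.7e-06), while Il34, the other, had a log2 fold change of -0.12 (edgeR, adjusted p = 0.394). Tgfb1 was higher by 1.29 after LPS (edgeR, adjusted p = 0.00014) and at -1.29 between LPS-CPD-4645 and LPS-vehicle (edgeR, adjusted p = 0.00018). Fractalkine, Cx3cl1, averaged 670 ± 66.5 CPM in sham-vehicle and 545 ± 51.0 in LPS-vehicle mice (SD, n = 4 and 5), a log2 fold change of -0.30 (edgeR, adjusted p = 0.026).

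Tyrobp, the adaptor of SIGLEC-H, fell by 1.23 on the log2 scale between LPS-CPD-4645 and LPS-vehicle (edgeR, adjusted p = 0.0012), opposite in sign to Siglech. The ATP receptor gene P2rx4 fell by 1.15 (edgeR, adjusted p = 3.3e-05). With Tgfb1 these were the 3 of the 19 that passed in this comparison, where 4.19% of all genes were lower past the threshold.

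Among 14 transcription factors of the microglial lineage, 6 were higher and 1 lower past the threshold after LPS (4.68% and 0.995% of all genes tested). Batf3 was higher by 2.07, Cebpb by 1.98 and Spi1, which encodes PU.1, by 1.70 (edgeR, adjusted p = 0.00029, 1.1e-05 and 0.00029). The 1 that fell was the immediate early gene Egr1 (-1.25), which neurons also express. Spi1 averaged 3.73 ± 1.84, 12.2 ± 3.66 and 12.2 ± 2.48 CPM in the 3 groups (SD, n = 4, 5 and 4), so it was as high in LPS-CPD-4645 as in LPS-vehicle mice. Between LPS-CPD-4645 and LPS-vehicle the 14 had log2 fold changes from -0.61 to 0.46, and by adjusted p alone 1 was higher and 1 lower, against 14.1% and 16.4% of all genes tested.

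Of 15 pan-leukocyte and pan-macrophage genes, which microglia share with other myeloid cells, 13 were higher past the threshold after LPS (4.68% of all genes tested), and the median of the 15 log2 fold changes was 1.97. Of these Itgam rose by 1.75, Ptprc by 1.99 and Cd68 by 1.13, and Itgam fell by 2.22 between LPS-CPD-4645 and LPS-vehicle, where 8 of the 15 were lower past the threshold (4.19% of all genes tested). Neutrophil markers summed to 3.65 to 11.2 CPM in sham-vehicle mice, 72.6 to 290 CPM in LPS-vehicle mice and 7.94 to 28.5 CPM with CPD-4645.

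Border macrophage markers summed to 16.1 to 19.9 CPM in sham-vehicle, 34.3 to 57.1 in LPS-vehicle and 17.1 to 26.4 in LPS-CPD-4645 mice. In LPS-vehicle mice most of this sum came from Stab1 (24.2 CPM) and Lyve1 (7.46 CPM), which endothelial cells also express. Of 12 such markers 9 were tested and 5 were higher past the threshold after LPS (4.68% of all genes tested), among them Siglec1 (3.89), Lyve1 (2.69) and F13a1 (1.71) (edgeR, adjusted p = 0.00011, 0.0020 and 0.0010). The markers did not move as 1 block. Mrc1 and Cbr2 had log2 fold changes of -0.50 and -0.74 (edgeR, adjusted p = 0.518 and 0.450), while Cd209f and Cd209g, too low to be tested, averaged 0.669 and 0.407 CPM in sham-vehicle mice and 0.0987 and 0.0562 in LPS-vehicle mice, and had no reads in LPS-CPD-4645 mice.

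Monocyte markers summed to 113 to 134, 126 to 172 and 97.8 to 125 CPM in the 3 groups, mostly from Nr4a1 and Fn1, which neurons and vessels also express (46.1 and 36.9 CPM in sham-vehicle mice). The sum therefore hides the markers of low level. Of 10 markers 8 were tested and 3 were higher past the threshold after LPS (4.68% of all genes tested). Chil3 averaged 0.184, 7.84 and 1.37 CPM in the 3 groups and was higher by 5.25 after LPS, and it fell by 2.56 between LPS-CPD-4645 and LPS-vehicle (edgeR, adjusted p = 1.6e-06 and 0.00038). Ly6c2 was higher by 2.05 after LPS (edgeR, adjusted p = 0.020). Ccr2 and Spn were too low to be tested. Ccr2 averaged 0.0418, 0.268 and 0.0687 CPM in the 3 groups, and Spn 0.0470, 0.553 and 0.163. The part of all these cells in the values of Aif1 and Csf1r was not tested.

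Of 20 genes known from activated or disease-associated microglia 17 were tested. After LPS 7 were higher past the threshold (4.68% of all genes tested) and 0 lower (0.995%). By adjusted p alone 11 were higher (11.1% of all genes) and 1 lower (8.86%). Lpl averaged 32.44 CPM in sham-vehicle and 21.65 in LPS-vehicle mice. Itgax and Clec7a, too low to be tested, averaged 0.432 and 0.221 CPM in sham-vehicle and 0.135 and 0.102 in LPS-vehicle mice. Ch25h, which makes 25-hydroxycholesterol, was higher by 4.84, the cytokine gene Il1b by 4.46 and the chemokine gene Ccl4 by 4.42 (edgeR, adjusted p = 1.8e-07, 4.9e-05 and 0.00039). Markers of cells that are not immune cells also differed between the groups. Endothelial markers summed to 436 to 702 CPM in sham-vehicle, 496 to 1060 in LPS-vehicle and 609 to 830 in LPS-CPD-4645 mice, and astrocyte markers to 1649 to 2131, 2189 to 2832 and 2025 to 2607 CPM. Neuron markers summed to 9466 to 10900, 7860 to 8758 and 8467 to 10870 CPM in the same order, and oligodendrocyte markers to 5225 to 7443, 3824 to 5072 and 4511 to 5594 CPM. Pericyte and smooth muscle markers summed to 253 to 381, 184 to 306 and 218 to 288 CPM. The sums of astrocyte, neuron and oligodendrocyte markers thus did not overlap between sham-vehicle and LPS-vehicle mice, while all 5 sums overlapped between LPS-vehicle and LPS-CPD-4645 mice. The part of these markers' cells in the values of the 10 genes was not tested.

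P2ry12 is also the ADP receptor of platelets. Of 10 platelet markers 3 were tested, with log2 fold changes from 0.10 to 0.43 after LPS. The sum of the 10 was 13.4 to 18.7 CPM in sham-vehicle mice, 13.2 to 18.1 CPM in LPS-vehicle mice and 15.6 to 23.9 CPM with CPD-4645, mostly from Gp1bb and Itga2b (8.60 and 3.68 CPM in sham-vehicle mice). The other 7 were too low to be tested, and all 7 had lower means in LPS-vehicle than in sham-vehicle mice. The defining marker Ppbp averaged 0.757 ± 0.779, 0.169 ± 0.131 and 0.0956 ± 0.123 CPM in sham-vehicle, LPS-vehicle and LPS-CPD-4645 mice (SD, n = 4, 5 and 4), and Gp9 averaged 0.346, 0.0782 and 0.237 CPM. The part of platelets in the fall of P2ry12 was not tested.

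The genes whose log2 CPM was most like that of P2ry12 over the 13 mice, among 14835 genes of at least 1 CPM, were Slc22a8 (Pearson's r = 0.98), Itm2a (0.98), Pllp (0.97), Slc16a4 (0.97) and Slc40a1 (0.97). Of the 10 genes the nearest were P2ry13 (0.92) and Gpr34 (0.90), and the farthest were Csf1r (0.25) and Aif1 (-0.0063). These values mostly hold the difference between groups, and all mice share 1 scaling. After the group means were removed, the nearest of the 10 were Tmem119 (0.83), P2ry13 (0.77), Sall1 (0.66) and Cx3cr1 (0.60), while Siglech was at -0.62 and Aif1 at -0.46. The nearest of all genes were then Gm4353 (0.91), Cldn1 (0.91), Cdkn2c (0.90), Aup1 (0.89) and Smad6 (0.88). Both lists of nearest genes hold the highest of 14835 values over 13 mice, and no test was made of them.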

How the data were processed

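Neurovascular fractions of single mice were sequenced from stranded, poly(A)-selected libraries. The authors aligned reads with STAR 2.5.2a to mm10 (GRCm38) and deposited whole-number counts per gene on GENCODE M9, without normalization. The strand setting of the counts is not given in the sources used here. Groups and mouse numbers come from the labels.

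Counts were fitted with edgeR 4.0.16 (R 4.3.3): filterByExpr (minimum count 10, minimum total 15), TMM, a quasi-likelihood model of 3 groups over all 13 mice, and Benjamini-Hochberg adjustment over 17285 genes. The threshold was an adjusted p of at most 0.05 and at least 2-fold. Intervals are 95%. Names and positions come from GENCODE M21 (47224 identifiers matched). Promoters are RefSeq's.

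The 10 genes, the 16 other lists and the tests were chosen with earlier results of these data known. Named are the 10 genes, overlapping genes, Cd68, Itgam, Ptprc, 4 ligands, up to 3 genes per list and comparison with the largest change past the threshold at a mean of at least 1 CPM, and the 5 nearest patterns to P2ry12. Marker genes used to check the tissue are named outside it, after their values were seen. So are some genes of the platelet, monocyte, border macrophage, plasmacytoid dendritic cell, activated microglia and further homeostatic microglia lists. Some genes and planned results are not reported here.

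Total counts per library spanned 7.06-fold, which limits genes of few reads. In 22 replicate pairs the spread between mice exceeded counting error. Mice with the same number did not deviate together: of 12 pairs 1 had a correlation above 0.1 (range -0.035 to 0.114). The script was tested on simulated data. Alternatives were limma-voom 3.58.1, DESeq2 1.42.0, other scalings and filters, only the groups compared, glmTreat, no minimum fold change, a replicate block, and fits without each mouse or without the 2 shallowest libraries.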

Additional observations from a re-analysis of the deposited data

Results flagged for a closer look

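Of 30 sets of values for 1 gene in 1 group, 2 held a mouse that stood apart from the others by Dixon's test, and chance gives about 1 in 20. Tmem119 stood at 11.9 CPM in LPS-CPD-4645 mouse 1, one of the 2 shallowest libraries, against 7.15 to 7.65 in the other 3. Fcrls stood at 7.42 CPM in LPS-vehicle mouse 1, against 1.64 to 2.12 in the other 4.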

How the results depend on the processing

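Over 25 alternative fits, 726 of 750 log2 fold changes of the 10 genes kept their direction and their side of the threshold, 6 lost and 10 gained a call, and 8 changed sign. Testing against a 2-fold change (glmTreat) left 3 genes lower after LPS (0.208% of all genes tested), and 0 lower (0.202%) and 0 higher (0.174%) between LPS-CPD-4645 and LPS-vehicle. In that comparison 2 were lower with no minimum fold change (16.4% of all genes) and 3 without the 2 shallowest libraries (4.77%). No setting changed a sign that edgeR had called. The sign changed for Csf1r after LPS without sham-vehicle mouse 4 (-0.01), and between the groups given LPS for P2ry12 with the replicate block (0.15), without the block on the same libraries or without LPS-vehicle mouse 5 (0.15 each) and without LPS-CPD-4645 mouse 2 (0.05), for Cx3cr1 without LPS-vehicle mouse 3 (-0.02) or the 2 shallowest libraries (-0.01), and for Fcrls without LPS-vehicle mouse 1 (0.20). Without each mouse in turn these ran from -0.01 to 0.20 for Csf1r, -0.16 to 0.15 for P2ry12, -0.02 to 0.34 for Cx3cr1 and -0.74 to 0.20 for Fcrls. The cause was not tested. The fit without the block on the same libraries was chosen after seeing the data. It is the same fit as the one without LPS-vehicle mouse 5, so its values are counted again among the 25. The setting with no minimum fold change reused the main fit, so its signs could not change.

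Leaving out the TMM factors shifted the median of all genes by 0.104 after LPS. The block, which also leaves out LPS-vehicle mouse 5, gave 6 lower genes after LPS (1.07% of all genes), as did the same libraries without it (1.05%). The mice share only a number, so the block says nothing about a weaker effect.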
